A study of Mus musculus with 9 samples.

Results

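Matrix metalloproteinases (MMPs), the ADAMTS and ADAMTS-like families and the tissue inhibitors of metalloproteinases (TIMPs) were examined in bulk RNA-seq libraries of sorted mouse cells. Members were chosen by gene symbol alone (Mmp, Adamts or Adamtsl with a number, and Timp1 to Timp4), which gave 51 of the 26214 genes measured: 23 MMP, 19 ADAMTS, 5 ADAMTS-like and 4 TIMP genes. The 9 libraries came from male C57BL/6J mice aged 8 to 12 weeks, all on day 1 after an intramuscular injection. Adipose stromal cells (ASCs, 3 libraries, subcutaneous adipose tissue) and fibro-adipogenic progenitors (FAPs, 2 libraries, quadriceps) were taken after NaCl. Injured FAPs (3 libraries) and 1 library of CD31+CD45+ cells were taken from quadriceps after glycerol (50% in saline), which damages the muscle. Stromal cells were sorted with magnetic beads as CD31-/CD45-/Sca-1+. Replicates of each stromal cell type were made from pooled cells of 3 animals. Whether each library had its own pool is not stated, nor whether the CD31+CD45+ cells were pooled. ASCs and FAPs differed both in tissue and in the enzymes used for dissociation (collagenase NB4 with DNase for fat, collagenase B with dispase for muscle), and these cannot be told apart. Since the stromal libraries come from pools, p-values measure the spread between these samples, which need not be the spread between animals. In bulk RNA, fewer cells of a type and less RNA per cell cannot be told apart.

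Metalloproteinases of these families are secreted or membrane-bound zinc enzymes, made as inactive precursors, that cut collagens, proteoglycans, microfibrils and growth factor carriers. TIMPs bind the active enzymes and block them, while ADAMTS-like proteins lack the catalytic domain and sit in the matrix. In muscle and fat many of these genes are expressed by stromal cells, and matrix remodelling after muscle damage depends on these families.

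The libraries held 24052508 to 27481573 reads in the 8 stromal samples and 13091077 in CD31+CD45+ cells. Levels are given as normalized reads, that is reads divided by the size factor of the library, in which 3 reads correspond to 2.29 to 4.71. Differences between the 3 stromal groups are log2 fold changes of normalized reads plus 1, which understate the change of low genes, fitted by limma to the 13601 genes whose mean reached 10. A gene was called when its Benjamini-Hochberg adjusted p was under 0.05 and its log2 fold change was beyond 0.58 either way. Of the 51 members, 39 passed the filter on low values (13 MMP, 17 ADAMTS, 5 ADAMTS-like and 4 TIMP genes) and 12 did not. The CD31+CD45+ library has no replicate and entered no test.

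Between ASCs and FAPs, 19 of the 39 members tested were higher in ASCs by limma and 16 were lower, where 23.4% and 23.8% of all genes tested were called, and with quantile normalization the split was 13 to 14. Injury gave 8 members higher and 21 lower than in FAPs, beside 24.9% and 27.7% of all genes, so the share of members called higher was near that of all genes. Directly against ASCs, injured FAPs had 13 members higher and 19 lower, beside 25.0% and 25.8% of all genes. The median log2 fold changes over the members tested were 0.57, -0.71 and -0.64 in these 3 comparisons, and 0.00, -0.05 and 0.02 over all genes tested. The comparisons share libraries, so their values are set side by side below and are not independent. Members that pass the filter through 1 high group must differ, and these counts describe the families without setting them apart from other genes.

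**Figure D1:**
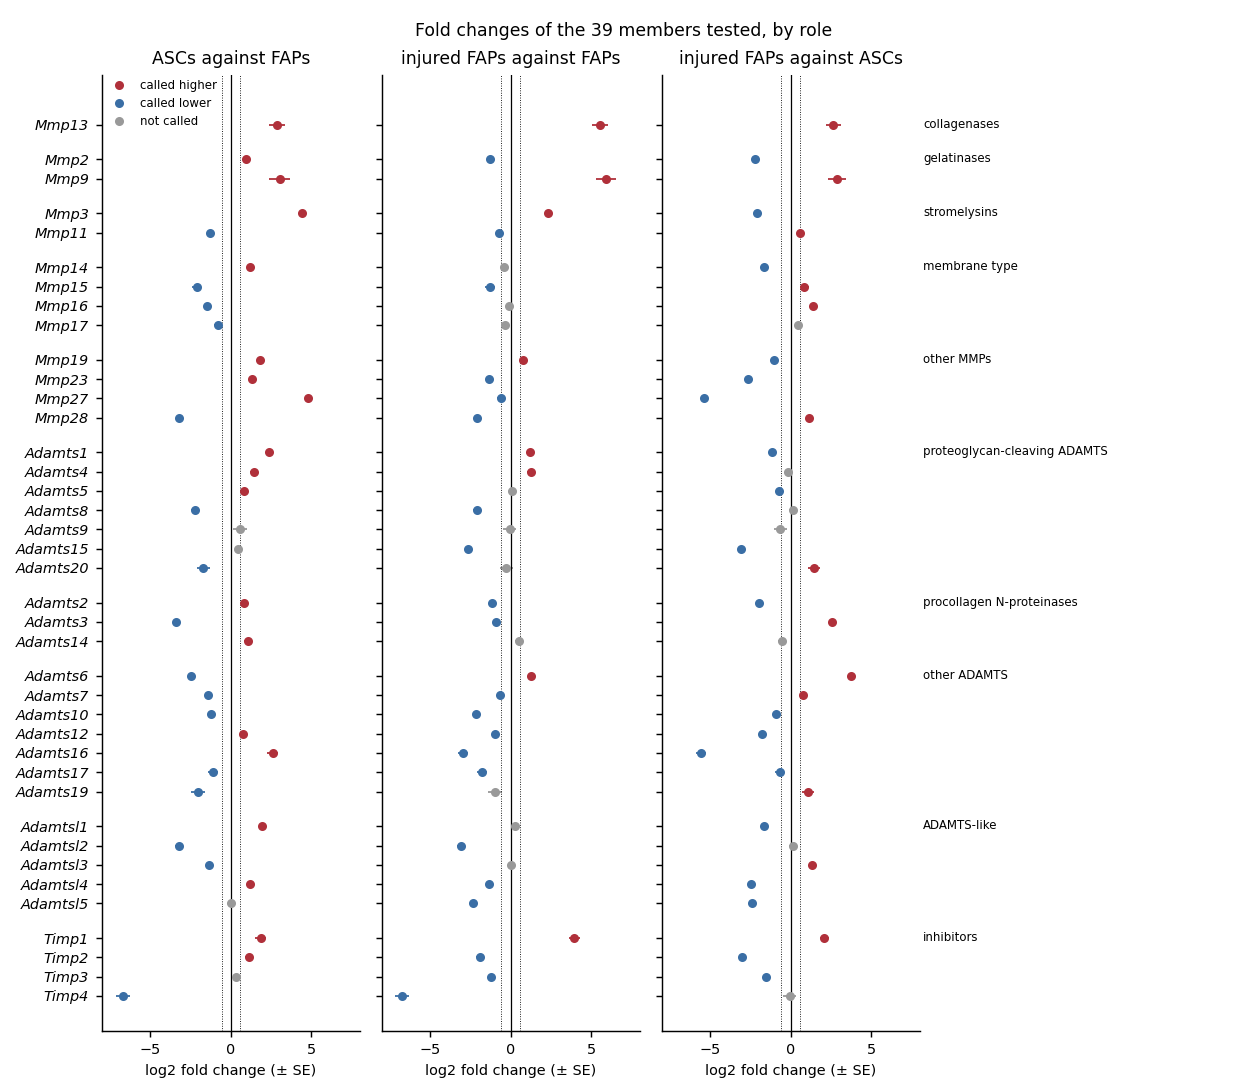
Log2 fold change (x axis, points with SE) of each of the 39 members tested in the 3 comparisons, ordered by role, with dotted lines at 0.58 either way and colours for the limma call. Timp1 lies at 1.84, 3.94 and 2.09, and Timp4 at -6.71, -6.77 and -0.06, from left to right.

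The 4 inhibitors moved in different directions. Timp1, a soluble inhibitor that is induced by many cytokines, was at 5604, 6301 and 2690.3 normalized reads in the 3 ASC libraries, 1616.5 and 1000.1 in the 2 FAP libraries, 19237, 19715 and 19465 in the 3 injured FAP libraries and 105 in the CD31+CD45+ library. Injured FAPs were the highest in all 3 libraries and FAPs the lowest of the stromal cells, with no overlap between groups. Its log2 fold change was 3.94 ± 0.32 (SE) in injured FAPs against FAPs (15.3-fold, limma with Benjamini-Hochberg adjusted p = 3.36e-06), 1.84 ± 0.32 in ASCs against FAPs (adjusted p = 6.04e-04) and 2.09 ± 0.28 in injured FAPs against ASCs (adjusted p = 8.77e-05).

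Timp2, which blocks MMPs and also takes part with MMP14 in activating the MMP2 precursor, had 210365, 115999 and 193516 normalized reads in the 3 ASC libraries, 73785 and 79612.5 in the 2 FAP libraries, 22184, 19968 and 19664 in the 3 injured FAP libraries and 9419.7 in the CD31+CD45+ library. The order was the reverse of that of Timp1 between ASCs and injured FAPs: ASCs were highest, injured FAPs lowest of the stromal groups, and no groups overlapped. It fell by 1.90 ± 0.23 (SE) on the log2 scale with injury (limma, Benjamini-Hochberg adjusted p = 4.82e-05) and was 1.13 ± 0.23 higher in ASCs than in FAPs (adjusted p = 0.00173). Injured FAPs against ASCs gave -3.03 ± 0.20 (limma, Benjamini-Hochberg adjusted p = 6.71e-07).

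Timp3 binds to the matrix and also inhibits ADAM17 and aggrecan-cleaving ADAMTS enzymes. It was at 28874, 15872 and 27862 normalized reads in the 3 ASC libraries, 18721 and 18332 in the 2 FAP libraries, 8167, 7483 and 8478 in the 3 injured FAP libraries and 33046 in the CD31+CD45+ library. ASC and FAP libraries overlapped, ASC replicate 2 being the lowest of those 5, and all injured libraries were lower than any of them. The difference between ASCs and FAPs was 0.34 ± 0.22 (limma, Benjamini-Hochberg adjusted p = 0.212), was called without ASC replicate 2 (0.61), and was -0.52 with quantile normalization. With injury Timp3 fell by 1.21 ± 0.22 (limma, Benjamini-Hochberg adjusted p = 7.71e-04), and against ASCs injured FAPs had -1.54 ± 0.20 (adjusted p = 6.00e-05). The deposited counting gives no strand setting, and 21.3% of the exon bases of Timp3 lie in exons of Syn3 on the other strand, so reads of both genes cannot be told apart there.

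Timp4, the inhibitor with the narrowest tissue range, stood at 5.27, 11.3 and 7.53 normalized reads in the 3 ASC libraries, 1198 and 696 in the 2 FAP libraries, 10.98, 7.75 and 4.58 in the 3 injured FAP libraries and 8638 in the CD31+CD45+ library. It was high in both FAP libraries and low in ASCs and injured FAPs, which overlapped each other, and its highest value by far was in CD31+CD45+ cells. Set against FAPs, its log2 fold change was -6.71 ± 0.43 in ASCs and -6.77 ± 0.43 in injured FAPs (limma, Benjamini-Hochberg adjusted p = 9.77e-07 and 9.83e-07), and it was -0.06 ± 0.39 between injured FAPs and ASCs (adjusted p = 0.904). Markers of other cell types are set beside Timp4 with the CD31+CD45+ library below.

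**Figure D2:**
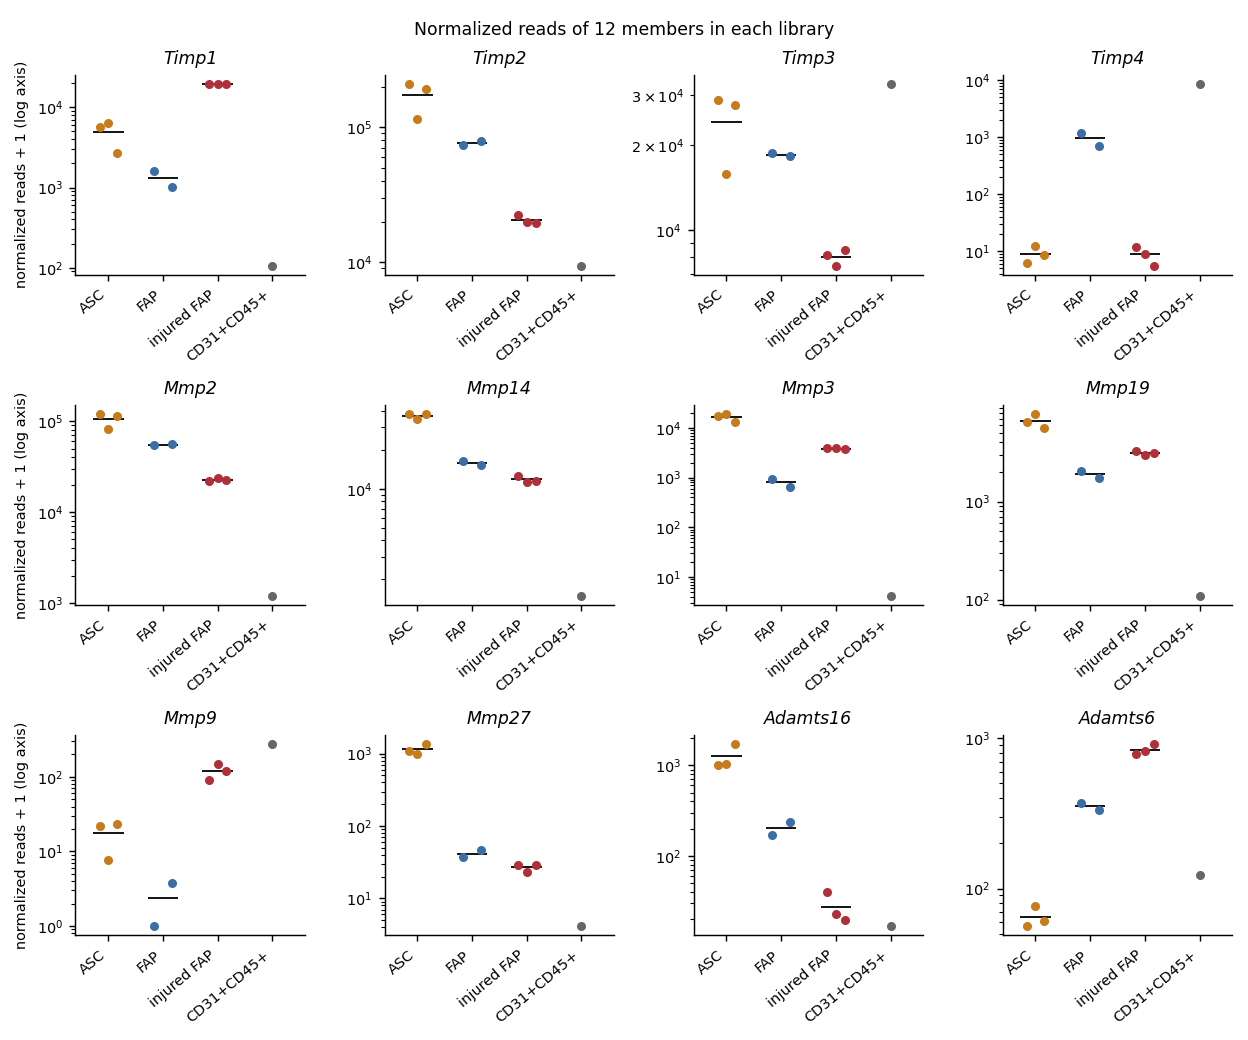
Normalized reads plus 1 (y axis, log scale) of 12 members in each library, by group (x axis), with 1 point a library and a line at the mean of the replicated groups. Injured FAPs sit between 19237 and 19715 for Timp1, above ASCs (2690 to 6301) and FAPs (1000.1 and 1616.5).

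Among the 2 gelatinases, which cut denatured collagen and basement membrane collagen, Mmp2 was abundant and Mmp9 scarce. Mmp2 had 120902, 83239 and 113801 normalized reads in the 3 ASC libraries, 54341 and 56376 in the 2 FAP libraries, 22258, 23559.6 and 22422 in the 3 injured FAP libraries and 1194 in the CD31+CD45+ library. ASCs were highest, then FAPs, then injured FAPs, without overlap. The fall with injury was 1.28 ± 0.17 on the log2 scale (limma, Benjamini-Hochberg adjusted p = 7.75e-05), and injured FAPs against ASCs gave -2.20 ± 0.15 (adjusted p = 6.63e-07). ASCs were 0.92 ± 0.17 higher than FAPs (limma, Benjamini-Hochberg adjusted p = 8.51e-04), a call lost with quantile normalization, which left 0.22.

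Mmp9, a gelatinase that neutrophils and macrophages also make, was at 21.1, 6.80 and 22.6 normalized reads in the 3 ASC libraries, 0 and 2.82 in the 2 FAP libraries, 88.7, 149 and 118 in the 3 injured FAP libraries and 275 in the CD31+CD45+ library. The 2 FAP libraries held 3 reads of Mmp9 together, the injured libraries were highest of the stromal groups, and CD31+CD45+ cells were higher than any. From the reads, the ratio of injured FAPs to FAPs was 83.7 (exact 95% counting interval 28.4 to 407) and that of ASCs to FAPs 11.6 (3.68 to 58.4), intervals that cover counting error only. All 3 comparisons were called by limma with Benjamini-Hochberg adjustment (adjusted p = 2.20e-05 for injured FAPs against FAPs, 0.00215 for ASCs against FAPs and 0.00119 for injured FAPs against ASCs). The last of these was 2.87 ± 0.57 on the log2 scale. The estimate of ASCs against FAPs depended on which FAP library was kept, being 2.06 without FAP replicate 1 and 4.0 without FAP replicate 2, and that of injured FAPs was 4.94 and 6.87, against 3.03 and 5.90 with both. A pseudocount of 8 lowered them to 1.3 and 3.74, and both stayed called.

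Markers of leukocytes followed Mmp9 only in part, and their sums overlapped between ASCs and FAPs, where Mmp9 did not. The 11 leukocyte markers summed to 504.5, 433 and 393 normalized reads in ASCs, 259.6 and 485 in FAPs, 766, 3439 and 659.7 in injured FAPs and 34289 in CD31+CD45+ cells. All 11 were above 0 in each injured library, with Lyz2 the most abundant in injured replicate 2 and Cd68 in the others, whereas 9 of the 11, Ptprc among them, were at 0 in both FAP libraries. Cd68 made up most of the FAP sums, and a limit on zeros in FAPs is given with Mmp13 below. Of the 10 leukocyte markers tested, 6 were called higher in ASCs than in FAPs (Cd74, Csf1r, Fcer1g, Itgb2, Laptm5 and Lyz2) and 8 with injury, beside 23.4% and 24.9% of all genes. All of those called were at 0 in both FAP libraries and passed the filter only through the groups where they are high. The counts therefore do not set this list apart from other genes. In injured FAPs against ASCs 8 were higher (25.0% of all genes), but Csf1r was lower (-1.43). The 10 neutrophil markers summed to 77.7, 10.2 and 22.6 in ASCs, 10.5 and 15.99 in FAPs and 23.5, 147 and 28.2 in injured FAPs, with Csf3r the highest in all 3 injured libraries and Ngp at 0 in all 3. Injured replicate 2 was the highest of its group for both lists and for Mmp9. Injured replicate 1 was above replicate 3 for leukocyte markers, but below it for neutrophil markers and for Mmp9 (88.7 against 118). Beyond these values the part of other cells in the level of Mmp9 was not tested.

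Of the 6 membrane-type MMPs, 4 were tested, and 1 was higher and 3 were lower in ASCs than in FAPs (23.4% and 23.8% of all genes). With injury 0 of the 4 were higher, also at unadjusted p and by edgeR and DESeq2, and 1 was lower (24.9% and 27.7% of all genes). Mmp14, which cleaves fibrillar collagen at the cell surface and activates the MMP2 precursor, had 37953, 34456 and 37641 normalized reads in the 3 ASC libraries, 16358 and 15323 in the 2 FAP libraries, 12639, 11278 and 11570.4 in the 3 injured FAP libraries and 1492.5 in the CD31+CD45+ library. ASCs were at more than any FAP library, and injured FAPs were slightly under FAPs, without overlap. ASCs against FAPs gave 1.21 ± 0.11 (limma, Benjamini-Hochberg adjusted p = 7.63e-06, 0.41 and not called with quantile normalization) and injured FAPs against ASCs -1.63 ± 0.10 (adjusted p = 2.94e-07). With injury the log2 fold change was -0.42 ± 0.11 (limma, Benjamini-Hochberg adjusted p = 0.00603), which is within 0.58 and was not called.

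Mmp16, also a transmembrane enzyme, was at 73.8, 60.03 and 56.5 normalized reads in ASCs, 167 and 191 in FAPs, 166, 165 and 171 in injured FAPs and 4.71 in CD31+CD45+ cells. Both muscle groups lay above ASCs and overlapped each other. The log2 fold change was -1.49 ± 0.18 in ASCs against FAPs (limma, Benjamini-Hochberg adjusted p = 6.50e-05) and 1.40 ± 0.16 in injured FAPs against ASCs (adjusted p = 3.09e-05), and injured FAPs against FAPs gave -0.09 ± 0.18 (adjusted p = 0.665). Mmp15 and Mmp17, both higher in the CD31+CD45+ library than in any stromal one, are described with it. Mmp24 and Mmp25 did not pass the filter, with at most 6.10 and 15.99 normalized reads in a stromal library.

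The collagenases, 2 of the 3 stromelysins and 4 other MMPs lie next to each other on chromosome 9 (chr9:7272514-7699585, GRCm38). The 10 genes, in the order Mmp13, Mmp12, Mmp1b, Mmp3, Mmp1a, Mmp10, Mmp8, Mmp27, Mmp20 and Mmp7, span 427.1 kb. Of these, Mmp13, Mmp3 and Mmp27 passed the filter. All 3 were called higher in ASCs than in FAPs (23.4% of all genes). With injury Mmp13 and Mmp3 were called higher (24.9%) and Mmp27 lower (27.7%), a call that Mmp27 lost under 5 alternatives given below. Sequence before the start site is shown for these 3 and for Mmp10, since neighbours in this cluster moved together or apart. Capitals mark the heptamer TGACTCA (read as TGAGTCA on the other strand), which AP-1 factors bind, and TATAAA. Each line gives the 150 bases before the start, 5′ to 3′ on the plus strand, from RefSeq (GRCm38.p6), at chr9:7272364-7272513, chr9:7445672-7445821, chr9:7502192-7502341 and chr9:7571246-7571395 in turn.
Mmp13: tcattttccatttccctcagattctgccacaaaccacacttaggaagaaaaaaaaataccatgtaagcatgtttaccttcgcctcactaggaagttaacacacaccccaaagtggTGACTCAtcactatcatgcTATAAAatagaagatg
Mmp3: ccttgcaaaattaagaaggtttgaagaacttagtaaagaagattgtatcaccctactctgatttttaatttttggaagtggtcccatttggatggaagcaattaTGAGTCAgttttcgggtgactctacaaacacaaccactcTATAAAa
Mmp10: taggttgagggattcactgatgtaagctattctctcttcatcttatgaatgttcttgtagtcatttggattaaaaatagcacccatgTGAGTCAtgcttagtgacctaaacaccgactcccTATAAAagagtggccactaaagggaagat
Mmp27: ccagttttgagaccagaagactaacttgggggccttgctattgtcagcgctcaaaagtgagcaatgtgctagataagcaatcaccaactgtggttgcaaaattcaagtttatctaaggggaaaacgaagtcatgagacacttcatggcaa

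RefSeq promoters were matched for 36 of the 51 members, including all 10 of the cluster. In the 250 bases before the start, on either strand, TGACTCA was found in 7 of the 10 cluster genes (Mmp10, Mmp12, Mmp13, Mmp1a, Mmp1b, Mmp3 and Mmp7) and in 0 of the other 26 members matched, and in 4.46% of all 32851 promoters of the same length. It began 35 bases before the start in Mmp13, 46 in Mmp3 and 63 in Mmp10. TATAAA was found in 7 of the 10 and in 3 of the 26, Adamts1, Adamtsl2 and Mmp21, against 12.4% of all promoters. The 2 motifs share no base in the sequences shown. Mmp27 held neither in this window, which says only that these letters are not there. A match describes the sequence and shows neither binding nor a cause.

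Mmp3, stromelysin 1, cleaves proteoglycans, fibronectin and other MMP precursors, and its promoter above carries both motifs. It was at 17795, 19397 and 13301 normalized reads in the 3 ASC libraries, 951 and 659.5 in the 2 FAP libraries, 3900.3, 3902 and 3769 in the 3 injured FAP libraries and 3.14 in the CD31+CD45+ library. All ASC libraries were above all injured libraries, and these above both FAP libraries. The log2 fold change was 4.39 ± 0.18 in ASCs against FAPs (20.96-fold, limma with Benjamini-Hochberg adjusted p = 7.30e-08), 2.28 ± 0.18 with injury (adjusted p = 2.88e-06) and -2.11 ± 0.16 in injured FAPs against ASCs (adjusted p = 1.44e-06). In CD31+CD45+ cells 2 reads of Mmp3 were counted.

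Mmp13, collagenase 3, cuts fibrillar collagens. It had 9.22, 6.80 and 3.77 normalized reads in the 3 ASC libraries, 0 and 0 in the 2 FAP libraries, 38.5, 41.1 and 55.7 in the 3 injured FAP libraries and 9.42 in the CD31+CD45+ library. No read of it was counted in FAPs, and injured FAPs were above ASCs in every library. Against a floor of 3 reads over the 2 FAP libraries, injured FAPs were at least 31.8-fold higher and ASCs at least 4.65-fold higher. Both differences were called by limma with Benjamini-Hochberg adjustment (adjusted p = 7.40e-06 and 7.10e-04), as was injured FAPs against ASCs at 2.65 ± 0.45 (adjusted p = 4.22e-04). The floor covers counting error only. Pecam1 was at 194.9 in FAP replicate 1 and 0 in FAP replicate 2, a gap larger than counting error, so the bounds hold only if the zeros are true counts. The member medians given above are the same with Mmp13 at its bound.

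Mmp27 showed another distribution, with 1088, 985 and 1358 normalized reads in the 3 ASC libraries, 36.1 and 45.2 in the 2 FAP libraries, 28.2, 22.5 and 27.5 in the 3 injured FAP libraries and 3.14 in the CD31+CD45+ library. ASCs were far above both muscle groups, which lay close together without overlap. ASCs against FAPs gave 4.78 ± 0.21 (27.4-fold, limma with Benjamini-Hochberg adjusted p = 9.94e-08) and injured FAPs against ASCs -5.40 ± 0.19 (adjusted p = 1.37e-08). The smaller fall with injury, -0.62 ± 0.21 (limma, Benjamini-Hochberg adjusted p = 0.0223), was lost without FAP replicate 2 (-0.46), without injured replicate 2 (-0.52), with a pseudocount of 8 (-0.51), with quantile normalization (-0.11) and in a fit of the 2 groups only.

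The remaining cluster genes were at or near the detection limit. Mmp10, stromelysin 2, was at 3.95, 7.93 and 6.28 normalized reads in ASCs, 0 and 0 in FAPs, 7.06, 4.65 and 6.86 in injured FAPs and 0 in CD31+CD45+ cells, and so was at 0 in both FAP libraries and above 0 in the other 6 stromal libraries. Against the floor of 3 reads it was at least 4.27-fold higher in ASCs and 4.36-fold higher in injured FAPs, with the limit on zeros in FAPs given for Mmp13. It was below the filter, and was called in both only when no filter was used. Mmp8, the neutrophil collagenase, was at 0 in FAPs, 1.57, 6.20 and 6.10 in injured FAPs and 28.2 in CD31+CD45+ cells. Mmp12, macrophage elastase, had 5.49, 7.75 and 3.81 in injured FAPs and 21.97 in CD31+CD45+ cells. Mmp1a and Mmp1b, close copies of each other whose reads may not be separable, and Mmp7 stayed at or under 2.35 in each library, and Mmp20, the enamel enzyme, was at 0 in all 9.

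**Figure D3:**
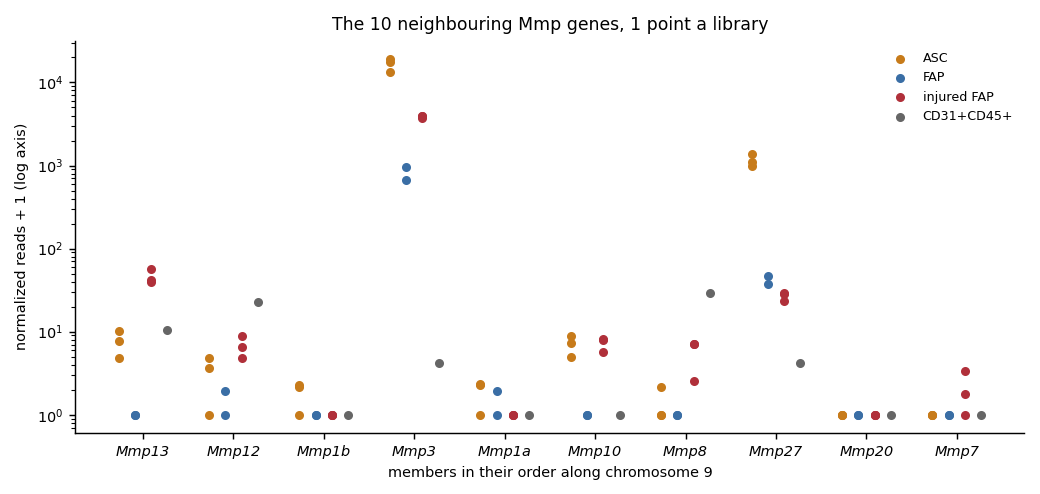
Normalized reads plus 1 (y axis, log scale) of the 10 neighbouring Mmp genes in their order along chromosome 9 (x axis, not to scale), 1 point a library, coloured by group. Mmp3 reaches 13301 to 19397 in ASCs, whereas Mmp20 is at 0 in all 9 libraries.

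Mmp11, the third stromelysin, lies elsewhere and acts little on matrix collagen. It had 215, 248 and 247 normalized reads in ASCs, 606 and 571 in FAPs, 360.1, 369.7 and 346 in injured FAPs and 370.4 in CD31+CD45+ cells, highest in FAPs and lowest in ASCs without overlap. It was called lower in ASCs and in injured FAPs than in FAPs (log2 fold changes -1.31 and -0.71) and higher in injured FAPs than in ASCs (0.60), the last of which was lost without ASC replicate 1, without injured replicate 2 and with quantile normalization.

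Among the 8 other MMPs, 4 were tested. Mmp19, which degrades basement membrane components, had 6401, 7826 and 5637 normalized reads in ASCs, 2044 and 1730.1 in FAPs, 3278, 2994.5 and 3090.5 in injured FAPs and 108 in CD31+CD45+ cells. The order was ASCs, injured FAPs, FAPs, without overlap, with log2 fold changes of 1.80 ± 0.14 for ASCs against FAPs, 0.73 ± 0.14 with injury and -1.07 ± 0.12 for injured FAPs against ASCs (limma, Benjamini-Hochberg adjusted p = 2.86e-06, 9.93e-04 and 2.90e-05). Exons of Tmem198b on the other strand cover 22.3% of its exon bases. Mmp23, a membrane enzyme anchored at its start, had 4271, 3139.6 and 4066 normalized reads in ASCs, 1443.5 and 1617 in FAPs, 617, 609.9 and 580.4 in injured FAPs and 42.4 in CD31+CD45+ cells. ASCs were highest and injured FAPs lowest of the stromal groups, with -2.65 ± 0.12 between them (limma, Benjamini-Hochberg adjusted p = 5.71e-08), 1.31 ± 0.13 for ASCs against FAPs (adjusted p = 1.93e-05) and -1.34 ± 0.13 with injury (adjusted p = 1.35e-05). Mmp21, also outside the cluster, was at 2.82 or less.

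ADAMTS enzymes that cleave aggrecan, versican and other proteoglycans numbered 7, all tested: 3 were higher and 2 lower in ASCs than in FAPs (23.4% and 23.8% of all genes). With injury 2 were higher and 2 lower, near the shares of all genes (24.9% and 27.7%). Adamts1 had 71410.0, 56216 and 62749.9 normalized reads in the 3 ASC libraries, 12712 and 12049 in the 2 FAP libraries, 29768.5, 27051 and 28724 in the 3 injured FAP libraries and 21730.2 in the CD31+CD45+ library. ASCs were highest, injured FAPs next and FAPs lowest, without overlap. ASCs against FAPs gave 2.35 ± 0.13 (limma, Benjamini-Hochberg adjusted p = 3.57e-07) and injury 1.20 ± 0.13 (adjusted p = 2.22e-05). Injured FAPs against ASCs gave -1.15 ± 0.12 (limma, Benjamini-Hochberg adjusted p = 1.10e-05), which became -0.10 and was not called with quantile normalization.

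Adamts4, aggrecanase 1, was at 23828, 18980.2 and 13967 normalized reads in the 3 ASC libraries, 7216 and 6659 in the 2 FAP libraries, 19105.5, 13098 and 17057 in the 3 injured FAP libraries and 5895 in the CD31+CD45+ library. Both ASCs and injured FAPs were above FAPs in every library and overlapped each other. The log2 fold changes were 1.41 ± 0.22 in ASCs and 1.23 ± 0.22 in injured FAPs against FAPs (limma, Benjamini-Hochberg adjusted p = 2.77e-04 and 5.96e-04), and -0.19 ± 0.19 between injured FAPs and ASCs (adjusted p = 0.407). Quantile normalization gave 0.65 for ASCs against FAPs, still called, and 0.55 for injured FAPs against ASCs, not called. Adamts5, aggrecanase 2, was called higher in ASCs than in FAPs (0.82) and lower in injured FAPs than in ASCs (-0.74), both lost with quantile normalization, and with injury its log2 fold change was 0.08.

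Adamts15 had 1807, 2425 and 1821.5 normalized reads in ASCs, 1484 and 1458 in FAPs, 276, 271 and 175 in injured FAPs and 314 in CD31+CD45+ cells. ASCs and FAPs were close without overlap, and injured FAPs were below both in every library. Injury gave -2.64 ± 0.20 and injured FAPs against ASCs -3.08 ± 0.18 (limma, Benjamini-Hochberg adjusted p = 2.61e-06 and 2.78e-07), whereas ASCs against FAPs was 0.44 ± 0.20 (adjusted p = 0.082), called only with the replicate number as a block. Adamts8 was instead high in FAPs alone of the stromal groups, at 196, 122 and 129 normalized reads in ASCs, 839 and 563.5 in FAPs, 165, 139 and 171 in injured FAPs and 59.6 in CD31+CD45+ cells. It was lower than in FAPs by 2.23 ± 0.24 in ASCs and, measured the same way, fell by 2.12 ± 0.24 with injury (limma, Benjamini-Hochberg adjusted p = 2.60e-05 and 2.99e-05). The low Adamts20, with means of 8.73 in ASCs, 31.2 in FAPs and 25 in injured FAPs, was called lower in ASCs than in either muscle group, and the call against FAPs was lost without FAP replicate 2.

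The 3 procollagen N-proteinases remove the amino-terminal propeptide of fibrillar procollagens, and they differed from each other. Adamts3 had 136, 138 and 134 normalized reads in the 3 ASC libraries, 1394 and 1550.4 in the 2 FAP libraries, 785, 835 and 755 in the 3 injured FAP libraries and 54.9 in the CD31+CD45+ library. FAPs were highest and ASCs lowest of the stromal groups, the ASC libraries lying between 134 and 138. ASCs against FAPs gave -3.42 ± 0.11 (10.7-fold lower, limma with Benjamini-Hochberg adjusted p = 2.11e-08), injury -0.89 ± 0.11 (adjusted p = 6.52e-05) and injured FAPs against ASCs 2.53 ± 0.10 (adjusted p = 2.97e-08). Adamts2 was highest in ASCs, with means of 34976 ± 3873 (SD, n = 3) in ASCs, 20009.7 ± 2118 (n = 2) in FAPs and 8838 ± 436 (n = 3) in injured FAPs. It was called in all 3 comparisons (log2 fold changes 0.80, -1.18 and -1.98), the first of which was lost with quantile normalization. Adamts14 was called higher in ASCs than in FAPs (1.05). Its other differences, 0.49 with injury and -0.56 for injured FAPs against ASCs, were called without FAP replicate 2 and without ASC replicate 1, respectively, and DESeq2 called the second.

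Of the 9 other ADAMTS genes, 7 were tested, with 2 higher and 5 lower in ASCs than in FAPs (23.4% and 23.8% of all genes) and 1 higher and 5 lower with injury (24.9% and 27.7%). Adamts6, which acts on fibrillin microfibrils, was the member called higher with injury, at 55.3, 75.9 and 60.3 normalized reads in the 3 ASC libraries, 369.9 and 332 in the 2 FAP libraries, 784, 821 and 914 in the 3 injured FAP libraries and 122 in the CD31+CD45+ library. Injured FAPs were highest and ASCs lowest in every library. The log2 fold change was 1.25 ± 0.16 with injury (limma, Benjamini-Hochberg adjusted p = 8.54e-05), -2.45 ± 0.16 in ASCs against FAPs (adjusted p = 1.22e-06) and 3.71 ± 0.15 in injured FAPs against ASCs (13.1-fold, adjusted p = 2.97e-08). Adamts10, also a microfibril enzyme, had 2236, 1951.5 and 2493 normalized reads in ASCs, 4684 and 5700.3 in FAPs, 1156.5, 1207 and 1183 in injured FAPs and 2159.5 in CD31+CD45+ cells. FAPs were above ASCs and ASCs above injured FAPs in every library, with -2.13 ± 0.12 for injury and -1.22 ± 0.12 for ASCs against FAPs (limma, Benjamini-Hochberg adjusted p = 6.87e-07 and 1.85e-05).

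Adamts16 showed the widest range of this group between ASCs and injured FAPs, at 1008, 1044 and 1724 normalized reads in the 3 ASC libraries, 169 and 237 in the 2 FAP libraries, 38.5, 21.7 and 18.3 in the 3 injured FAP libraries and 15.7 in the CD31+CD45+ library. ASCs were above FAPs and FAPs above injured FAPs without overlap. Injured FAPs against ASCs gave -5.56 ± 0.29 (47.2-fold lower, limma with Benjamini-Hochberg adjusted p = 1.41e-07), ASCs against FAPs 2.60 ± 0.33 (adjusted p = 8.03e-05) and injury -2.96 ± 0.33 (adjusted p = 2.65e-05). Adamts12 and Adamts7, which both cleave cartilage oligomeric matrix protein (COMP), went opposite ways between tissues. Means were 10092 ± 1715 and 5835 ± 241 for Adamts12 in ASCs (SD, n = 3) and FAPs (n = 2), and 202.5 ± 16.6 and 544 ± 74.1 for Adamts7. The log2 fold changes of ASCs against FAPs were 0.78 and -1.42, and the call of Adamts12 was lost with quantile normalization and with a common 75th percentile. With injury both were called lower (-0.98 and -0.67), Adamts7 not without FAP replicate 2 or injured replicate 3. Adamts17 and Adamts19 were called lower in ASCs than in FAPs (-1.12 and -2.04), the call of Adamts17 being lost without FAP replicate 2 and with quantile normalization. Adamts17 was also lower in injured FAPs than in ASCs (-0.68), a call lost under 10 alternatives, among them edgeR and leaving out any 1 of 5 libraries (ASC replicate 3, FAP replicates 1 and 2, injured replicates 2 and 3). Adamts13 and Adamts18 did not pass the filter.

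The 5 ADAMTS-like genes were all tested: 2 were higher and 2 lower in ASCs than in FAPs (23.4% and 23.8% of all genes). By limma 0 were higher and 3 lower with injury (24.9% and 27.7%), with 0 higher also at unadjusted p and by edgeR and DESeq2. Adamtsl2, a microfibril-associated protein, had 476, 265 and 467 normalized reads in the 3 ASC libraries, 3294 and 3982 in the 2 FAP libraries, 459.8, 397 and 412 in the 3 injured FAP libraries and 53.4 in the CD31+CD45+ library. FAPs stood above both other stromal groups, which overlapped. It was -3.22 ± 0.23 in ASCs and -3.10 ± 0.23 in injured FAPs against FAPs (limma, Benjamini-Hochberg adjusted p = 1.67e-06 and 2.02e-06).

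Adamtsl4, which binds fibrillin 1, was at 12860.0, 10156 and 13859 normalized reads in ASCs, 5260.3 and 5693 in FAPs, 2451, 2026 and 2070.0 in injured FAPs and 422 in CD31+CD45+ cells. ASCs were highest, FAPs next and injured FAPs lowest of the stromal groups. Injured FAPs against ASCs gave -2.49 ± 0.13 and injury -1.33 ± 0.14 (limma, Benjamini-Hochberg adjusted p = 1.15e-07 and 2.05e-05), and the call of ASCs against FAPs (1.16 ± 0.14) was lost with quantile normalization (0.51). Adamtsl1 had 10859, 10267 and 9390.2 normalized reads in ASCs, 2915 and 2359 in FAPs, 3234, 3259.6 and 3005 in injured FAPs and 251 in CD31+CD45+ cells, with ASCs above both muscle groups, 1.95 ± 0.11 against FAPs (limma, Benjamini-Hochberg adjusted p = 5.05e-07). Adamtsl3 was the reverse, at 1083, 874 and 1112 normalized reads in ASCs, 2609 and 2501 in FAPs, 2598, 2523 and 2611 in injured FAPs and 427 in CD31+CD45+ cells, with both muscle groups above ASCs and overlapping each other. Its log2 fold change was -1.33 ± 0.11 for ASCs against FAPs (limma, Benjamini-Hochberg adjusted p = 6.26e-06), and it was also called higher in injured FAPs than in ASCs. Adamtsl5 was at 3179, 2344.5 and 3451 normalized reads in ASCs, 2505 and 3347 in FAPs, 649, 517 and 538 in injured FAPs and 383 in CD31+CD45+ cells, with ASCs and FAPs overlapping and injured FAPs below both, -2.36 ± 0.18 with injury (limma, Benjamini-Hochberg adjusted p = 2.83e-06).

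To compare levels between genes, normalized reads were divided by the kilobases of annotated exon of each gene and summed within a family. All exons of GENCODE M21 entered the length, whereas the study counted reads on a UCSC annotation of mm10. Shares within a family depend on that length. Of the TIMP sum per kb, Timp2 made up 84.6, 76.7 and 88.5% in ASCs, 81.4 and 85.4% in FAPs and 20.1, 18.1 and 18% in injured FAPs. Timp1 made up 9.88, 18.3 and 5.40% in ASCs, 7.83 and 4.71% in FAPs and 76.4, 78.6 and 78.3% in injured FAPs. The leading inhibitor transcript per kb was thus Timp2 in each ASC and FAP library and Timp1 in each injured library. Before division, the injured means were 19472.5 normalized reads for Timp1 and 20605 for Timp2. The lead of Timp1 there thus rests on the lengths used, 0.888 kb for Timp1 and 3.896 kb for Timp2. The TIMP sum itself was 52932 ± 12817 normalized reads per kb in ASCs (SD, n = 3), 23595 ± 473 in FAPs (n = 2) and 28206 ± 180.1 in injured FAPs (n = 3).

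The MMP sum per kb was 51115.5 ± 5519 in ASCs, 21191.5 ± 186 in FAPs and 12309 ± 185 in injured FAPs (SD, n as before), without overlap. Mmp2 made up 63.6, 54.4 and 65.5% of it in ASCs, 76.5 and 78.4% in FAPs and 53.4, 56.1 and 55% in injured FAPs. Mmp3 made up 17.5, 23.7 and 14.3% in ASCs and 17.5, 17.4 and 17.3% in injured FAPs, but 2.51 and 1.72% in FAPs. Among ADAMTS genes Adamts1 led per kb in each library except FAP replicate 2, where Adamts2 did, with 54, 51 and 53.4% in ASCs, 28.4 and 26.2% in FAPs and 46.3, 48.9 and 47.5% in injured FAPs. The share of Adamts2 was 23.5 and 26.6% in FAPs and 8.03, 9.33 and 7.83% in injured FAPs, and that of Adamts4 17.8 and 16% and 32.8, 26.1 and 31.1%.

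**Figure D4:**
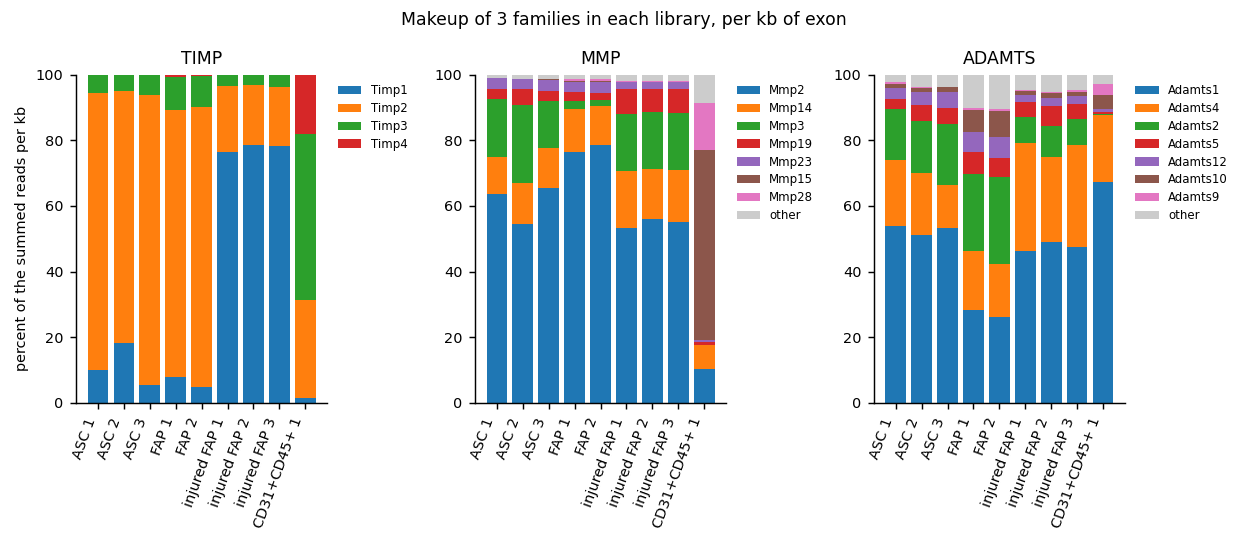
Percent of the summed normalized reads per kb of exon (y axis) that each gene makes up in its family, for the TIMP, MMP and ADAMTS families, with 1 stacked bar a library (x axis). Timp1 takes 76.4 to 78.6% of the TIMP sum in injured FAPs and 4.71 to 18.3% in FAPs and ASCs.

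The CD31+CD45+ library served to see which members are high outside the stromal sort. Its label names an endothelial and a leukocyte antigen: Pecam1 (CD31) was at 45323 normalized reads and Ptprc (CD45) at 797, against at most 269 and 55.8 in a stromal library, while the stromal marker Pdgfra was at 119 there and at 10837 to 25268 in stromal libraries. The 10 endothelial markers summed to 334598 and the 7 smooth muscle and pericyte markers to 89871. Of the 51 members, 8 with at least 100 normalized reads there were higher in it than in any other library: Timp3, Timp4, Mmp9, Mmp15, Mmp17, Mmp28, Adamts9 and Adamts18. These are values of 1 library, with no replicate check.

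Mmp15, a membrane-type enzyme, was at 107, 48.7 and 85.4 normalized reads in the 3 ASC libraries, 305 and 375 in the 2 FAP libraries, 140.4, 146.5 and 129 in the 3 injured FAP libraries and 10801 in the CD31+CD45+ library. Among stromal groups FAPs were highest and ASCs lowest, without overlap. ASCs against FAPs gave -2.13 ± 0.29 and injury -1.28 ± 0.29 (limma, Benjamini-Hochberg adjusted p = 1.22e-04 and 0.00267). Injured FAPs against ASCs gave 0.85 ± 0.26 (limma, Benjamini-Hochberg adjusted p = 0.0135), lost without ASC replicate 2 (0.53) and with quantile normalization (0.62). Per kb, Mmp15 made up 58.1% of the MMP sum in CD31+CD45+ cells.

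Mmp28, epilysin, was at 57.96, 46.4 and 65.3 normalized reads in the 3 ASC libraries, 523 and 532.5 in the 2 FAP libraries, 133, 114 and 121 in the 3 injured FAP libraries and 1882 in the CD31+CD45+ library. FAPs were again the highest stromal group and ASCs the lowest, without overlap. It was -3.21 ± 0.19 in ASCs against FAPs, -2.10 ± 0.19 with injury and 1.12 ± 0.17 in injured FAPs against ASCs (limma, Benjamini-Hochberg adjusted p = 4.86e-07, 6.58e-06 and 1.88e-04). Mmp17, a membrane enzyme with a lipid anchor, had 111, 63.4 and 85.4 normalized reads in ASCs, 155 and 140.2 in FAPs, 126, 106 and 117 in injured FAPs and 373.5 in CD31+CD45+ cells. FAPs were above the other stromal groups, which overlapped. Its difference between ASCs and FAPs, -0.80 ± 0.24 (limma, Benjamini-Hochberg adjusted p = 0.0139), was lost without FAP replicate 1 (-0.73) and with quantile normalization (-0.40). Injured FAPs against ASCs, 0.46 ± 0.21, was called without ASC replicate 1 (0.65).

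Adamts9, a proteoglycan-cleaving enzyme, was called in no stromal comparison, at 2391, 742 and 699 normalized reads in ASCs, 797 and 654 in FAPs, 753, 670.4 and 646 in injured FAPs and 3167 in CD31+CD45+ cells. ASC replicate 1 was far above the other ASC libraries, which overlapped both muscle groups. The log2 fold change of ASCs against FAPs was 0.57 ± 0.42 (limma, Benjamini-Hochberg adjusted p = 0.264), and 0.00 without ASC replicate 1. Adamts18, which did not pass the filter, was at 10.5, 1.13 and 3.77 normalized reads in ASCs, 13.3 and 13.2 in FAPs, 7.85, 0.775 and 0 in injured FAPs and 127 in CD31+CD45+ cells, low in each stromal library.

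Timp4, Mmp15, Mmp17 and Mmp28 were all highest in FAPs of the stromal groups. So were the sums of smooth muscle and pericyte, tendon, Schwann, satellite cell and muscle fibre markers, of which all but the first are given below. Smooth muscle and pericyte markers, 7 of 7 above 0 in each library, summed to 1421, 828 and 987 in ASCs, 21329.5 and 18723 in FAPs and 9121, 8835 and 9195 in injured FAPs. All 7 were called lower in ASCs than in FAPs (23.8% of all genes) and 6 lower with injury (27.7%), Cspg4 being slightly higher there and not called (0.14). The most abundant was Des in ASCs, Rgs5 or Acta2 in FAPs and Cspg4 in injured FAPs. The 10 endothelial markers summed to 7322, 5882 and 7721 in ASCs, 6314 and 4362 in FAPs and 2224, 2326.5 and 1851 in injured FAPs, with Tek the most abundant in ASCs and FAPs and Cdh5 in injured FAPs. The ASC sums were mostly Tek (5986, 4841 and 6700, against 2120.5 and 1890 in FAPs), and without it they lie below those of FAPs. Cdh5, Egfl7, Flt1 and Kdr were called lower in ASCs than in FAPs, as were Egfl7, Flt1, Kdr and Tek with injury. Cldn5, Emcn and Plvap were called higher in both groups than in FAPs, as was Tek in ASCs. Emcn, Cldn5, Vwf and Plvap were at 0 in both FAP libraries and Pecam1 in FAP replicate 2, with the limit on zeros in FAPs given for Mmp13. In the same FAP libraries Cdh5 was at 1438 and 686 and Flt1 at 1260 and 953. Cldn5, Emcn and Plvap thus passed the filter only through the groups where they are high, and their calls do not set them apart from other genes. As a percent of the CD31+CD45+ library, FAPs reached 13.9 and 8.06% for Timp4 and 2.83 and 3.48% for Mmp15. They reached 41.5 and 37.5% for Mmp17 and 27.8 and 28.3% for Mmp28. In FAPs the endothelial sum was at 1.89 and 1.30% and the smooth muscle and pericyte sum at 23.7 and 20.8%. In injured FAPs Timp4 was at 0.127, 0.0897 and 0.0530% and the smooth muscle and pericyte sum at 10.1, 9.83 and 10.2%. Of that sum Cspg4, which was not called with injury, held 4655, 3881 and 4406 normalized reads. The part of vessel cells in these results was not tested.

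**Figure D5:**
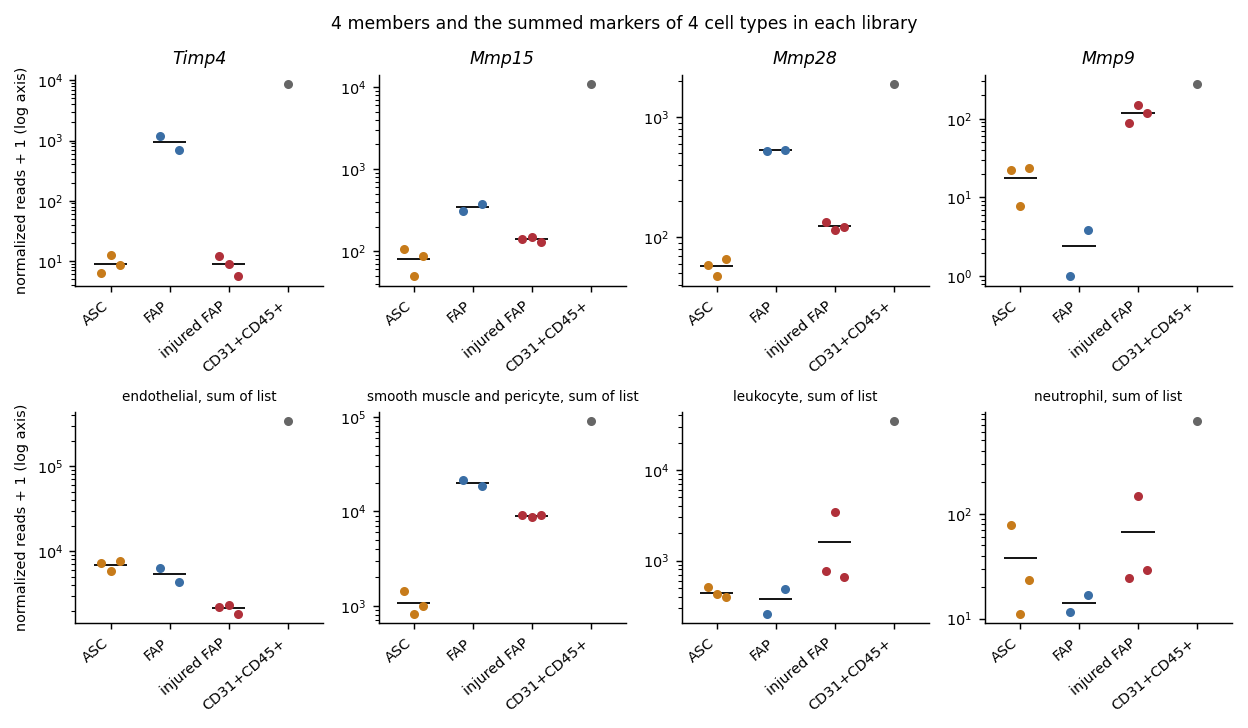
Normalized reads plus 1 (y axes, log scale) of Timp4, Mmp15, Mmp28 and Mmp9 (top) and of the summed markers of 4 cell types (bottom) in each library, by group, with a line at the mean of replicated groups. The CD31+CD45+ library is the highest in every panel, and injured replicate 2 stands above the other injured libraries for leukocyte markers (3439 against 766 and 659.7).

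The other marker lists also differed between tissues. The 4 tendon markers summed to 175, 205 and 261 in ASCs, 11303 and 14639 in FAPs and 6383, 6844 and 5713 in injured FAPs, with Kera the highest in muscle and Tnmd in ASCs, and all 4 were called lower in ASCs than in FAPs (23.8% of all genes). Markers of muscle fibres summed to at most 174 in ASCs, 710.3 and 890.0 in FAPs and at most 285 in injured FAPs. Schwann markers were higher in FAPs than in the other stromal groups (659.9 and 1204). Satellite cell markers stayed at or under 128 in stromal libraries and were highest in FAPs. In CD31+CD45+ cells the muscle fibre, Schwann and satellite cell sums were 2925, 7963 and 491, above every stromal library. The tendon sum was 1147 there, below both muscle stromal groups. Adipocyte markers summed to 113, 96.3 and 109 in ASCs and at most 21.6 in muscle stromal libraries. The 7 stromal markers were above 0 in every library, and Col1a1 was the most abundant of them. What part these cells play in the members' values was not tested.

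Other genes that act with metalloproteinases were followed as lists. Among activators, receptors and further inhibitors, 5 genes are described. Plaur, the urokinase receptor, had 6699, 2830.4 and 2358 normalized reads in ASCs, 365 and 262.5 in FAPs, 2708, 2267 and 2741 in injured FAPs and 1092 in CD31+CD45+ cells, FAPs being the lowest stromal group and the other 2 overlapping. Its log2 fold changes against FAPs were 3.51 ± 0.36 in ASCs and 3.04 ± 0.36 in injured FAPs (limma, Benjamini-Hochberg adjusted p = 1.79e-05 and 3.89e-05). Plat, tissue plasminogen activator, was at 33949.6, 21914 and 28861 normalized reads in ASCs, 3089.5 and 3086 in FAPs, 3258, 2834 and 3489 in injured FAPs and 1099 in CD31+CD45+ cells, with ASCs far above both muscle groups, 3.17 ± 0.17 against FAPs (limma, Benjamini-Hochberg adjusted p = 2.65e-07).

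Tfpi2, a serine protease inhibitor, was at 5186, 3244 and 4033.5 normalized reads in ASCs, 342 and 288 in FAPs, 805, 694 and 835 in injured FAPs and 133 in CD31+CD45+ cells. ASCs were highest and FAPs lowest of the stromal groups, 3.70 ± 0.18 apart (limma, Benjamini-Hochberg adjusted p = 1.57e-07). Spock2, testican 2, a matrix proteoglycan, had 6165, 4333 and 4498 normalized reads in ASCs, 8218 and 7029 in FAPs, 782, 606 and 689 in injured FAPs and 1687 in CD31+CD45+ cells. Injured FAPs were far below the other stromal groups, and the fall with injury was 3.46 ± 0.17 (limma, Benjamini-Hochberg adjusted p = 2.89e-07). Pcsk6, a convertase that activates precursors, had 14395, 9515 and 16571 normalized reads in ASCs, 8309.9 and 10218 in FAPs, 2951, 2694 and 2885 in injured FAPs and 771 in CD31+CD45+ cells. ASCs and FAPs overlapped above injured FAPs, -1.70 ± 0.20 with injury (limma, Benjamini-Hochberg adjusted p = 4.09e-05).

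A list of 5 astacin procollagen proteinases and enhancers with Papln (papilin) had 4 of 6 genes higher and 0 lower in ASCs than in FAPs by limma (0 lower also at unadjusted p), beside 23.4% and 23.8% of all genes. With injury 1 was higher and 5 were lower, beside 24.9% and 27.7%. The gene called higher with injury was Tll1, tolloid-like 1, at 287, 354.5 and 310.1 normalized reads in ASCs, 156 and 187 in FAPs, 476, 479.7 and 535 in injured FAPs and 381 in CD31+CD45+ cells. It was highest in injured FAPs without overlap, 1.53 ± 0.15 against FAPs (limma, Benjamini-Hochberg adjusted p = 1.00e-05). Papln, a matrix protein related to the ADAMTS family, was at 902, 707 and 1378 normalized reads in ASCs, 235 and 213 in FAPs, 16.5, 12.4 and 9.91 in injured FAPs and 1538 in CD31+CD45+ cells, with ASCs highest and injured FAPs lowest of the stromal groups. Its log2 fold change with injury was -4.04 ± 0.29 (limma, Benjamini-Hochberg adjusted p = 1.66e-06). The enhancer Pcolce2 had 19079, 13929 and 17024 normalized reads in ASCs, 4107 and 4421 in FAPs, 2452, 2183 and 2308 in injured FAPs and 58.1 in CD31+CD45+ cells, in the same order, 1.96 ± 0.13 for ASCs against FAPs (limma, Benjamini-Hochberg adjusted p = 1.21e-06). Its relative Pcolce was at 48683, 43673 and 49316 normalized reads in ASCs, 46101 and 45977 in FAPs, 24154.5, 22640.4 and 21759 in injured FAPs and 2098 in CD31+CD45+ cells, with ASCs and FAPs overlapping and injured FAPs below them, -1.01 ± 0.12 with injury (limma, Benjamini-Hochberg adjusted p = 3.89e-05).

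Matrix substrates of these enzymes numbered 14, of which 12 were tested: 7 were higher and 3 lower in ASCs than in FAPs (23.4% and 23.8% of all genes), and 1 was higher and 7 were lower with injury (24.9% and 27.7%). The gene called higher with injury was Vcan, versican, a substrate of Adamts1 and Adamts4, at 14013, 19767 and 18659.9 normalized reads in ASCs, 12394 and 9672 in FAPs, 24389.9, 25754 and 25679.8 in injured FAPs and 201 in CD31+CD45+ cells. Injured FAPs were highest, 1.21 ± 0.16 against FAPs (limma, Benjamini-Hochberg adjusted p = 9.77e-05). Eln, elastin, had 36425, 25505 and 32430.1 normalized reads in ASCs, 38975 and 45957 in FAPs, 8015, 7885.5 and 7417 in injured FAPs and 25415 in CD31+CD45+ cells, and injured FAPs were lowest of the stromal groups, -2.45 ± 0.15 with injury (limma, Benjamini-Hochberg adjusted p = 8.71e-07). Col1a1, a chain of collagen I, had 1554055, 1204981 and 1467588 normalized reads in ASCs, 730859.6 and 902332 in FAPs, 275672, 292925 and 244326 in injured FAPs and 18995 in CD31+CD45+ cells, in the order ASCs, FAPs, injured FAPs, -1.59 ± 0.26 with injury (limma, Benjamini-Hochberg adjusted p = 3.85e-04). Fn1, fibronectin, was at 583124, 415413 and 645177 normalized reads in ASCs, 94114 and 106576 in FAPs, 99204, 100039.9 and 87044 in injured FAPs and 20895 in CD31+CD45+ cells, the muscle groups overlapping far below ASCs, 2.43 ± 0.22 for ASCs against FAPs (limma, Benjamini-Hochberg adjusted p = 7.88e-06). Fbn1, fibrillin 1, was at 123262.5, 122417 and 155437 normalized reads in ASCs, 64076 and 54729 in FAPs, 81746, 84339 and 80102 in injured FAPs and 3996 in CD31+CD45+ cells, ASCs being highest and FAPs lowest of the stromal groups.

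Acan, aggrecan, was at 0, 0 and 0 normalized reads in ASCs, 179 and 105 in FAPs, 182, 187 and 174 in injured FAPs and 10.99 in CD31+CD45+ cells. With a floor of 3 reads over the ASC libraries, this is at least 116-fold higher in FAPs and 147-fold in the injured. Comp had 182, 114 and 195 normalized reads in ASCs, 9498.5 and 13274 in FAPs, 3936, 3983 and 3724 in injured FAPs and 623 in CD31+CD45+ cells, with FAPs the highest of all, -6.13 ± 0.21 for ASCs against FAPs (limma, Benjamini-Hochberg adjusted p = 2.71e-08). Col2a1, the collagen II chain, had 10.5, 1.13 and 1.25 normalized reads in ASCs, 222.5 and 286 in FAPs, 71.4, 58.1 and 73.2 in injured FAPs and 26.7 in CD31+CD45+ cells, again with FAPs highest and ASCs lowest.

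Of 10 ADAM genes, relatives of which many shed proteins from the cell surface, 3 were higher and 2 lower in ASCs than in FAPs, and 4 were higher and 3 lower with injury, beside 23.4% and 23.8%, and 24.9% and 27.7%, of all genes tested. Adam12 had 2297.5, 3198.5 and 3318 normalized reads in ASCs, 481 and 277.5 in FAPs, 13167, 13169 and 12643 in injured FAPs and 132 in CD31+CD45+ cells. Injured FAPs were highest and FAPs lowest of the stromal groups, 5.15 ± 0.22 with injury (35.5-fold, limma with Benjamini-Hochberg adjusted p = 1.99e-07). Adam33 had 2448, 2051 and 2794.5 normalized reads in ASCs, 1573 and 2278 in FAPs, 217, 218 and 187 in injured FAPs and 83.2 in CD31+CD45+ cells, with injured FAPs below both other groups, -3.19 ± 0.18 against FAPs (limma, Benjamini-Hochberg adjusted p = 4.90e-07). Adam23, which lacks protease activity, was at 4102, 3937 and 4305 normalized reads in ASCs, 489 and 650.1 in FAPs, 1445, 1102 and 960.3 in injured FAPs and 48.6 in CD31+CD45+ cells, ASCs being highest and FAPs lowest, 2.86 ± 0.17 apart (limma, Benjamini-Hochberg adjusted p = 5.79e-07).

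Adam15 was at 6584, 6235 and 6999 normalized reads in ASCs, 6275 and 6237 in FAPs, 2724, 2583 and 2432 in injured FAPs and 21284.5 in CD31+CD45+ cells. ASCs and FAPs overlapped, and injured FAPs were lower, -1.28 ± 0.10 against FAPs (limma, Benjamini-Hochberg adjusted p = 2.15e-06). Adam19 had 2691, 2777 and 3039 normalized reads in ASCs, 4378 and 5247 in FAPs, 3545, 3235 and 3288 in injured FAPs and 854 in CD31+CD45+ cells, highest in FAPs, -0.76 ± 0.11 for ASCs against FAPs (limma, Benjamini-Hochberg adjusted p = 1.82e-04). Adam8, also made by leukocytes, had 26.4, 40.8 and 31.4 normalized reads in ASCs, 50.4 and 95.02 in FAPs, 87.9, 193 and 77.03 in injured FAPs and 269.9 in CD31+CD45+ cells. ASCs were lowest, and injured replicate 2 was the highest stromal library, as it was for leukocyte markers.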

How the data were processed

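RNA of sorted cells was sequenced in bulk in 9 libraries: ASCs (3), FAPs (2), injured FAPs (3) and CD31+CD45+ cells (1). The authors deposited signal values made as follows: reads passed fastq_illumina_filter 0.1 and FastQC 0.11.9, HISAT2 2.2.1 placed them on mm10, Subread 2.0.1 gave gene counts, and division by a size factor of DESeq2 1.34.0 gave the table. The strand setting of the counting is not given in the sources used here. Recovering the size factors gave whole reads for 100% of values, within a tolerance of 0.01. The table also holds 2 columns without a sample, which are empty and were not used. The sample labels give the groups and the replicate numbers.

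Depth was 24052508 to 27481573 reads in the 8 libraries compared and 13091077 in CD31+CD45+ cells. Divided by the size factor of each library, 3 reads equal 2.29 to 4.71 normalized reads. Log2 values (pseudocount 1) of the 13601 genes with a mean of 10 or more in those 8 were fitted with limma 3.58.1 (trend) in R 4.3.3, with 5 residual degrees of freedom. All 3 group comparisons came from 1 fit, and Benjamini-Hochberg adjustment ran over all genes tested. A call took a log2 fold change beyond 0.58 either way, with adjusted p below 0.05. The code was tested on simulated data.

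Members follow from the symbol rule. The families examined, like the role, marker and pathway lists, were chosen with earlier results of these data known. The marker lists were stromal, leukocyte, neutrophil, endothelial, smooth muscle and pericyte, muscle fibre, satellite cell, Schwann, adipocyte and tendon markers. By a rule fixed before the data files were opened, members named with every library's value are the 4 TIMP genes, Mmp2 and Mmp14, in each comparison the 6 called members that rise most and the 6 that fall most (mean of 50 or more over the 8 libraries), and members whose highest value, of at least 100, lies in the CD31+CD45+ library. Pathway lists follow the same rule with 2 in place of 6. Mmp10, Mmp11, Mmp13 and Mmp19 were added once the values were known, to complete their roles, and so was the choice of promoters shown. Exon lengths and overlapping genes came from GENCODE M21 and promoters from RefSeq (GRCm38.p6).

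Alternatives were pseudocounts of 0.5 and 8, no filter and a mean of 50, quantile normalization, a common 75th percentile, unadjusted p, only the 2 groups compared, the replicate number as a block, edgeR 4.0.16 and DESeq2 1.42.0 on the recovered reads, and each library left out in turn. Marker and pathway genes were not refitted under them, and their unadjusted p comes from the same fit. The result of 1 pathway gene, and the counts of its list, are not reported here. On recovered reads, edgeR called 19 members higher and 16 lower in ASCs against FAPs, 8 and 22 with injury, and 13 and 18 in injured FAPs against ASCs, and DESeq2 19 and 16, 8 and 21, and 12 and 20.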

Additional observations from a re-analysis of the deposited data

Results flagged for a closer look

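The CD31+CD45+ library was compared with no group, since it has no replicate, and 8 members with at least 100 normalized reads in it had their highest value of all 9 libraries there. Timp4 was at 8638.1 normalized reads against at most 1198.1 in a stromal library, Mmp15 at 10800.8 against 375.4, and Mmp28 at 1881.7 against 532.5. Mmp17 was at 373.5 against 155.0, Mmp9 at 274.6 against 148.8 and Adamts18 at 127.1 against 13.31. Timp3, at 33045.8 against 28873.8, and Adamts9, at 3167.1 against 2391.0, were closer to the highest stromal library, which was ASC replicate 1 for both. None of these differences was tested.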

How the results depend on the processing

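Of 1596 alternative values of the 84 log2 fold changes of the 28 tested members named by the fixed rule, 1580 stayed on their side of the thresholds, 13 were no longer called, 3 became called and 0 were called in the other direction, and 74 of the 84 held under every alternative. Changes that were not called could change sign, as Timp3 did between ASCs and FAPs with quantile normalization (-0.52 for 0.34). Among other members, the calls in injured FAPs against ASCs were lost under 10 alternatives for Adamts17, 6 for Adamts19, 3 for Mmp11 and 1 each for Adamts5, Adamts7, Adamts20 and Mmp13 (for the last 2 the mean of at least 50, where they are not tested), and Adamts14 gained one under 2. With injury Adamts7 lost its call under 2 and Mmp13 under 1 (not tested), while Adamts19 gained one under 5 and Adamts14 under 1. In ASCs against FAPs calls were lost under 2 each for Adamts12, Adamts17 and Adamts20 and 1 each for Adamts2, Adamts5, Adamts19 and Mmp13. For Adamts19, Mmp13 and 1 of the 2 of Adamts20 this was the mean of at least 50, where they are not tested. With the replicate block, members called higher in ASCs than in FAPs were 20 in place of 19, Adamts15 being added (0.58 for 0.44), and the other 5 counts were 16, 8, 21, 13 and 19 as before. Libraries of the same number correlated at -0.054 to 0.045 after removing group means, and those of different numbers at -0.123 to 0.123. Within such small groups these values are tied to each other, those of the 2 FAP libraries being mirror images. They show no pairing by number but cannot exclude one.

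Quantile normalization gave 13 members higher and 14 lower in ASCs against FAPs, 8 and 20 with injury, and 10 and 17 in injured FAPs against ASCs. A common 75th percentile moved the median log2 fold change of all genes to -0.20, -0.15 and 0.13 (0.00, -0.05 and 0.02 before) and the share of called genes that were higher in ASCs than in FAPs from 49.6% to 37.2%, but that of called members from 54.3% to 52.9%. Without a filter calls were gained by Mmp10 in ASCs against FAPs, by Adamts13, Mmp8, Mmp10, Mmp12 and Mmp25 with injury, and by Adamts13, Mmp8 and Mmp25 in injured FAPs against ASCs, where Adamts17 lost its call. Mmp1a, Mmp1b and Mmp7, with 0 to 3 reads in each stromal library, and Mmp20, with 0, cannot be compared at this depth.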
